A study of Rattus norvegicus with 6 samples.

Results

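The interleukin and interleukin-1 receptor genes Il1a, Il1b, Il1rn, Il1r1, Il1rl1, Il6 and Il15 were examined in primary cultures of rat cardiac fibroblasts. All probe sets that the platform annotation assigns to exactly 1 gene, that gene being 1 of these 7, were taken. This gave 18 probe sets of 7 genes among 8740 probe sets on the array. There were 3 probe sets each for Il1a, Il1b and Il15, 4 for Il1r1, 2 each for Il1rl1 and Il6, and 1 for Il1rn. The cultures came from ventricles of Sprague-Dawley rats aged 1 to 2 days, and no genotype is given beyond the strain. Of 6 cultures, 3 were treated with pertussis toxin (PTX) for 24 h and 3 received water as control. PTX, made by the whooping cough bacterium, modifies inhibitory G proteins (Gi and Go) so that receptors can no longer activate them. The labels state no dose. Each culture was read on its own 1-colour Affymetrix array. Nothing in the labels says whether the 3 cultures of a group came from separate isolations, so p-values measure only how these arrays spread, and that spread may be technical. These are bulk samples, in which fewer cells of a type and less RNA per cell cannot be told apart.

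Interleukin-1 is made as 2 agonists, encoded by Il1a and Il1b, which act on the receptor encoded by Il1r1 together with the accessory chain encoded by Il1rap. The antagonist encoded by Il1rn occupies the same receptor without signalling. Engaged receptors activate NF-kB, and in fibroblasts this induces chemokines, adhesion molecules and further cytokines, Il6 among them. Il1rl1 encodes ST2, a receptor of the same family whose ligand is interleukin-33, and it is known as a growth-factor-inducible gene of fibroblasts that also gives a soluble decoy form. Il6 encodes a cytokine that signals through the shared chain encoded by Il6st and the factor STAT3. Il15 encodes a cytokine that sustains natural killer cells and memory T cells and is made by many non-lymphoid cells.

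Promoter sequence is shown for Il1b and Il15, whose brightest probe sets differed between the groups in opposite directions, and for Il6, a textbook NF-kB target whose signals were near background here. The stretches run from 250 bases before to 50 bases after the transcript start used in RefSeq's promoter table (GRCr8), which holds all 7 genes. They are written 5′ to 3′ on the gene's own strand. Capitals mark exact matches, on either strand, to an NF-kB motif (GGANTTTCC), a TATA box (TATAAA), an AP-1 motif (TGANTCA) or a cyclic AMP response element (TGACGTCA).
Il1b (chr3:137036532-137036831, minus strand): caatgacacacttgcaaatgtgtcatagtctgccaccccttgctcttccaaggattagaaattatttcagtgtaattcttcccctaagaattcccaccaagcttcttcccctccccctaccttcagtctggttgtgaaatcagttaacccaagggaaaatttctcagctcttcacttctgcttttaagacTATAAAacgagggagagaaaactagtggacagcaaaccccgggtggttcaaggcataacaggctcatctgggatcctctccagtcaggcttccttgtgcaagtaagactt
Il15 (chr19:42544456-42544755, plus strand): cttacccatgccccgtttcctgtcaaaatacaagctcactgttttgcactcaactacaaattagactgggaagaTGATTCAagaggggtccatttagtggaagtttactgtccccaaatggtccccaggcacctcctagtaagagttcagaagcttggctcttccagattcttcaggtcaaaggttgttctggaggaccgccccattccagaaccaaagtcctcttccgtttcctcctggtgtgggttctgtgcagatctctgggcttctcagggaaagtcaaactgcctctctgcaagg
Il6 (chr4:5894526-5894825, minus strand): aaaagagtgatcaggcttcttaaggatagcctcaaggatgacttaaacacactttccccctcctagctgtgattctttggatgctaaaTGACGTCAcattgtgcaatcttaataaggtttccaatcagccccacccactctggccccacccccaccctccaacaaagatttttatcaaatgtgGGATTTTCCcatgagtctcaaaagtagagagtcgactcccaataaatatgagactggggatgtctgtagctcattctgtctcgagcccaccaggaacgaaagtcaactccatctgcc
Il6 held 1 NF-kB match 67 bases before the start and 1 cyclic AMP response element 162 bases before it. Il1b held 1 TATA box match, 60 bases before the start, and Il15 held 1 AP-1 match, 176 bases before it. No match overlapped another. Il6 was the only member with the NF-kB letters, and Il1a held an AP-1 match 12 bases before its start. Of all 33469 promoters in the table, 1.28% held the NF-kB letters, 14.2% the TATA box, 7.33% the AP-1 motif and 1.83% the response element. A match describes letters in this window and is not a binding site.

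The arrays were alike in level, with a median signal per array of 63.1 to 68.85. Control replicate 1 stood apart, with correlations of 0.952 to 0.960 with the other arrays, whereas the best correlation of each other array was 0.981 to 0.985. Each probe set whose mean log2(signal + 16) reached the 40th percentile, equal to a signal of 33.3, entered a limma fit of PTX against control. Of 5244 tested probe sets 4 passed a Benjamini-Hochberg adjusted p of 0.05, all of them higher with PTX, which is 0.0763%. An unadjusted p under 0.05 was reached by 12.6%, with 418 higher and 242 lower. Leaving out control replicate 1 gave 116 calls, and leaving out any 1 PTX array gave 0 (360 to 376 at an unadjusted p under 0.05). All 10 fibroblast markers lay above the filter, with summed signals of 87819 to 91926 in PTX arrays and 83812 to 99999.9 in control arrays. Their log2 changes were positive for 6 and negative for 4, with 0 past the adjusted threshold (limma; without adjustment 4 were higher and 1 lower at a p under 0.05). The surface marker Thy1 had -0.97, and the matrix genes Lum and Postn had 1.10 and 1.07 (limma adjusted p = 0.0743, 0.236 and 0.274), each with groups that were apart. A second, dimmer Thy1 probe set had -0.59 with overlapping groups (limma adjusted p = 0.387). Cardiomyocyte markers were brighter still in sum, 8 of 9 lying above the filter. Their summed signals were 195355 to 220391 in PTX arrays and 226891 to 294723 in control arrays. That exceeds the fibroblast sum on every array, although sums over different probe sets do not give the share of a cell type.

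Most of the interleukin and receptor probe sets lay close to background. Detection calls were not used, so distance from background was read in 3 ways. The first was the 33.3 filter level, the second the percentile of a signal on its own array, and the third a list of genes of pituitary, pancreas, testis, kidney, gut and other tissues that a heart culture should lack. The 65 probe sets of 43 such genes had a median signal of 14.5, their 90th percentile was 65.2, and 15 of them (23.1%) passed the filter, so passing it does not show that a transcript was present. Of the 18 member probe sets 10 passed and 8 did not. Only 4 exceeded the 90th percentile of the off-tissue list, 1 of Il1b, 1 of Il1rl1 and 2 of Il15, and the Il1b probe set did so narrowly at 66.4. Il1rn and Il6 had no probe set above the filter.

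**Figure D1:**
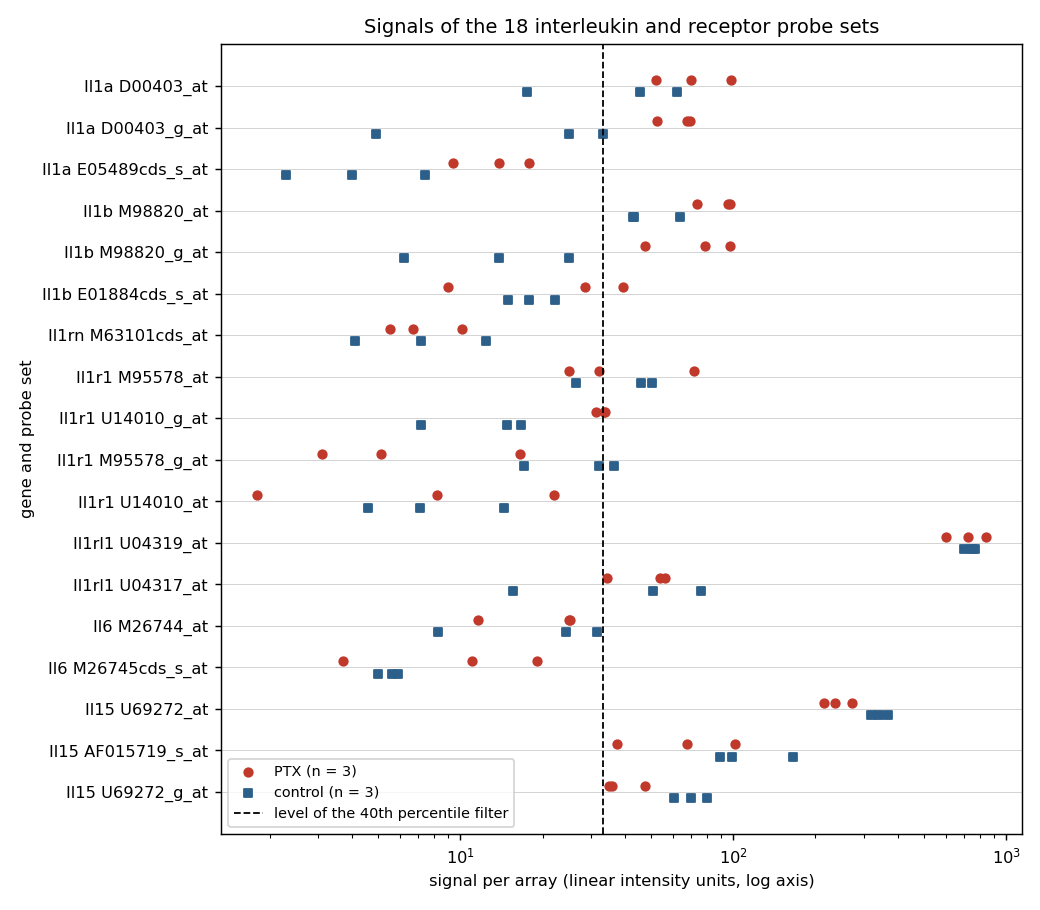
Signal of each of the 18 probe sets (rows) on the 3 PTX arrays (red circles) and the 3 control arrays (blue squares), on a log axis, with the filter level of 33.3 as a dashed line. One Il1rl1 probe set and the brightest Il15 probe set stand clear of the line, and no other row has a signal above 165.3.

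None of the 18 probe sets passed the adjusted threshold of 0.05 with limma, beside 0.0763% of all tested probe sets. The smallest adjusted p among the members was 0.204, for Il1b. An unadjusted p under 0.05 was found for 5 of the 10 tested, on 3 genes, beside 12.6% of all tested. The groups did not overlap for 3 with PTX above and 2 with PTX below, where 12.0% and 10.6% of all tested probe sets did so, or 22.6% together. These counts are not support for a change in the members as a set. Several of the probe sets share a gene or a source sequence, and 2 of the 3 with PTX above passed the filter only through their PTX arrays. The median log2 change of the 10 was 0.06, against -0.02 for all tested probe sets.

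Of the agonists, Il1b had a higher mean signal with PTX on all 3 probe sets, but the groups were apart on only 2 of them. Probe set M98820_at had signals of 73.5, 95.6 and 96.9 in PTX arrays and 63.6, 42.8 and 43.4 in control arrays. Every PTX array lay above every control array, and all 6 lay above the filter level. The means were 88.7 ± 13.2 with PTX and 49.9 ± 11.8 in controls (SD, n = 3 each), a log2 change of 0.67 ± 0.22 (SE) or 1.59-fold, with a limma adjusted p of 0.324. Its signals stood at percentiles 42.4 to 56.2 of their arrays, so the middle of the range of all probe sets, and its mean exceeded that of 89.2% of the off-tissue probe sets.

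Probe set M98820_g_at, built from the same source sequence, had signals of 47.6, 97.3 and 78.9 in PTX arrays and 6.2, 24.9 and 13.9 in control arrays. The groups were apart, and all 3 control signals were under the filter level while all 3 PTX signals were over it. Its difference was 1.55 ± 0.34 on log2(signal + 16) (limma adjusted p = 0.204) and 0.80 with a pseudocount of 64, so its size depends on the pseudocount. With a pseudocount of 1 it did not pass the filter. The third probe set, E01884cds_s_at, had 28.5, 9.0 and 39.4 in PTX arrays and 15, 22.3 and 17.8 in control arrays. It lay below the filter and was not tested, and its groups overlapped, with PTX replicate 2 the lowest of all 6.

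Il1a, the other agonist, had a higher mean signal with PTX on all 3 probe sets. Probe set D00403_at had 52.0, 69.8 and 97.7 in PTX arrays and 17.6, 45.4 and 62.2 in control arrays, which overlapped. Its log2 change was 0.68 ± 0.36 (limma adjusted p = 0.450), and 0.33 without control replicate 1, the lowest on this probe set. Probe set D00403_g_at had 67.7, 52.7 and 69.2 in PTX arrays and 4.9, 25.0 and 33.3 in control arrays. Here the groups were apart, but again no control array exceeded the filter level. Its difference was 1.18 ± 0.36 on log2(signal + 16) (limma adjusted p = 0.303), and 1.87 and 0.59 with pseudocounts of 1 and 64, so its size too depends on the pseudocount. Probe set E05489cds_s_at had 13.9, 9.4 and 17.9 in PTX arrays and 7.4, 4.0 and 2.3 in control arrays. These groups did not overlap either, although its highest signal reached only percentile 27.2 of its array, and it was not tested.

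**Figure D2:**
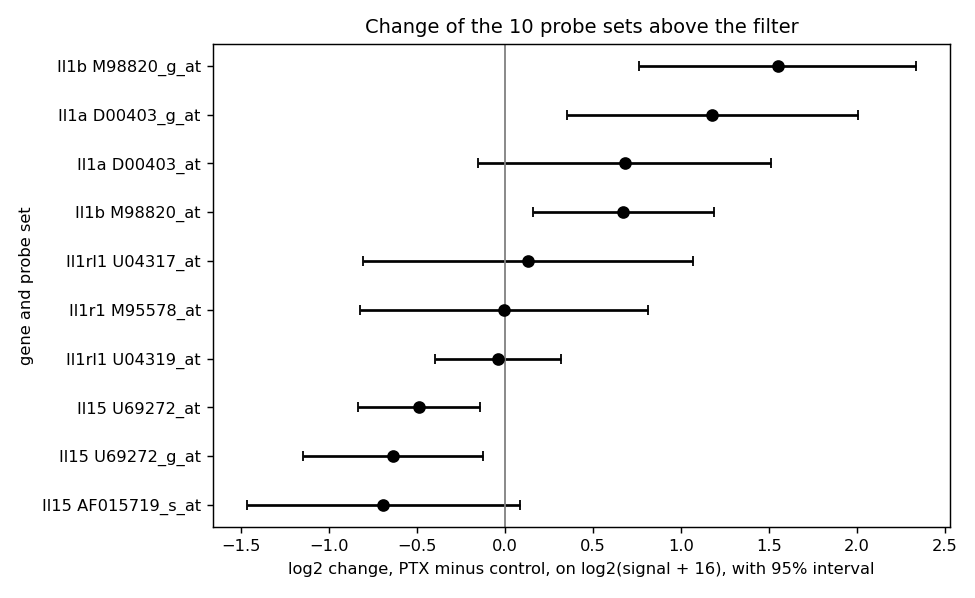
Log2 change (PTX minus control, on log2(signal + 16)) of the 10 probe sets above the filter, as points with limma's 95% intervals as bars. Il1b and Il1a lie at 0.67 to 1.55 on the right, Il15 at -0.69 to -0.49 on the left, and the intervals of 5 probe sets span 0.

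Il1rn, which encodes the antagonist, was at background in both groups. Its only probe set had 6.7, 10.1 and 5.5 in PTX arrays and 12.4, 7.2 and 4.1 in control arrays. The groups overlapped, and its mean exceeded that of 21.5% of the off-tissue probe sets, so these data give no level for the antagonist against which to set the agonists.

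The signalling receptor gene Il1r1 was read by 4 probe sets that did not go one way. Only M95578_at passed the filter, with 25.0, 71.6 and 32.1 in PTX arrays and 45.7, 50.5 and 26.5 in control arrays. The groups overlapped widely, with a log2 change of -0.00 ± 0.35 (95% interval -0.82 to 0.81, limma adjusted p = 0.998). That interval leaves room for a change of either sign on this probe set. Probe set U14010_g_at had 33.9, 33.5 and 31.5 in PTX arrays and 7.2, 16.7 and 14.8 in control arrays, all PTX arrays above all control arrays. Probe set M95578_g_at had 3.1, 5.1 and 16.6 in PTX arrays and 36.6, 17.1 and 32.2 in control arrays, the reverse arrangement. Both were under the filter and untested, and groups were apart in 11.0% of the 3496 probe sets under the filter. The last, U14010_at, had 1.8, 22.1 and 8.2 in PTX arrays and 4.6, 14.5 and 7.1 in control arrays, with overlap. No direction can be given for Il1r1 from these probe sets.

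Il1rl1, the ST2 gene, had the highest signal of the members and showed no difference between the groups beyond the spread of the arrays. Probe set U04319_at had 843.0, 603.3 and 724.0 in PTX arrays and 748.9, 698.4 and 769.0 in control arrays. The control signals lay inside the range of the PTX signals, and all 6 stood at percentiles 81.7 to 85.0 of their arrays. Its mean was 21.8 times the filter level and above every off-tissue probe set. The means were 723 ± 120 with PTX and 739 ± 36.4 in controls (SD, n = 3 each), a log2 change of -0.04 ± 0.16, with a 95% interval of -0.40 to 0.32 (limma adjusted p = 0.915). The interval leaves room for changes of either sign within those bounds.

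The second Il1rl1 probe set, U04317_at, was far dimmer. It had 34.5, 53.7 and 56.3 in PTX arrays and 76.3, 15.6 and 50.7 in control arrays. The control arrays spread on both sides of the PTX arrays (log2 change 0.13 ± 0.41, limma adjusted p = 0.897). Which transcript form, membrane-bound or soluble, each probe set reads is not stated by the annotation, and a signal on 1 probe set cannot be set against that on another as a transcript level. Mast cells, a known source of Il1rl1, were checked by their markers. All 6 mast cell markers on the array were below the filter, with summed signals of 71.8 to 122.4 in PTX arrays and 61.3 to 103.9 in control arrays. Among them Cpa3 had 23.1, 32.2 and 24.0 in PTX arrays and 2.0, 7.9 and 1.3 in control arrays, without a test. Every PTX array lay above every control array there. The other markers had overlapping groups, Tpsab1 and Mcpt1 with lower means with PTX. The part of mast cells in the Il1rl1 signal was not tested.

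Il6 was at background in both groups. Probe set M26744_at had 11.6, 25.3 and 25.0 in PTX arrays and 8.3, 31.7 and 24.4 in control arrays, and M26745cds_s_at had 19.1, 11.0 and 3.7 in PTX arrays and 5.9, 5.0 and 5.6 in control arrays. The groups overlapped on both, and no array reached the filter level on either. The mean of M26744_at exceeded that of 58.5% of the off-tissue probe sets and that of M26745cds_s_at 23.1%. The differences on the log2 scale were -0.00 and 0.30, without a test. A change of Il6 was therefore not measurable on these arrays.

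Il15 had a lower mean signal with PTX on all 3 probe sets, and it was the member with the most signal above background among those that differed. Probe set U69272_at had 235.3, 214.4 and 272.1 in PTX arrays and 319.4, 368.5 and 340.5 in control arrays. All PTX arrays lay below all control arrays, and the mean was 8.60 times the filter level and above every off-tissue probe set. The means were 241 ± 29.2 with PTX and 343 ± 24.6 in controls (SD, n = 3 each), a log2 change of -0.49 ± 0.15 (0.713-fold, limma adjusted p = 0.303). Probe set U69272_g_at, from the same source sequence, had 35.8, 35.0 and 47.4 in PTX arrays and 69.8, 60.6 and 80.3 in control arrays. These groups were also apart, with a log2 change of -0.64 ± 0.22 (limma adjusted p = 0.336), and all 6 signals lay above the filter level. Probe set AF015719_s_at had 37.4, 67.4 and 101.2 in PTX arrays and 165.3, 99.0 and 89.6 in control arrays. Here PTX replicate 3 lay among the controls (log2 change -0.69 ± 0.34, limma adjusted p = 0.432). Its log2 change was -0.40 without PTX replicate 1, -0.45 without control replicate 1 and -0.46 with a pseudocount of 64. Markers of cardiomyocytes, which such cultures can hold, moved beside Il15. Of 8 tested, 7 had negative and 1 a positive log2 change, with 0 past the adjusted threshold (limma; without adjustment 0 were higher and 1 lower at a p under 0.05). Their summed signals were 195355 to 220391 in PTX arrays and 226891 to 294723 in control arrays, without overlap, and their part in the Il15 result was not tested.

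No alternative of the 14 tried brought a member past the threshold. For 5 of the 7 tested probe sets of Il1a, Il1b and Il15 the groups do not overlap, so leaving out 1 array could not turn their sign. The smallest adjusted p of Il1b on M98820_g_at was 0.0737, without control replicate 1, and the largest 0.652, without PTX replicate 2. For Il15 on U69272_at the range was 0.104 to 0.684, and its log2 change ran from -0.58 to -0.41. The log2 change of Il1b on M98820_at ran from 0.42 to 0.83.

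**Figure D3:**
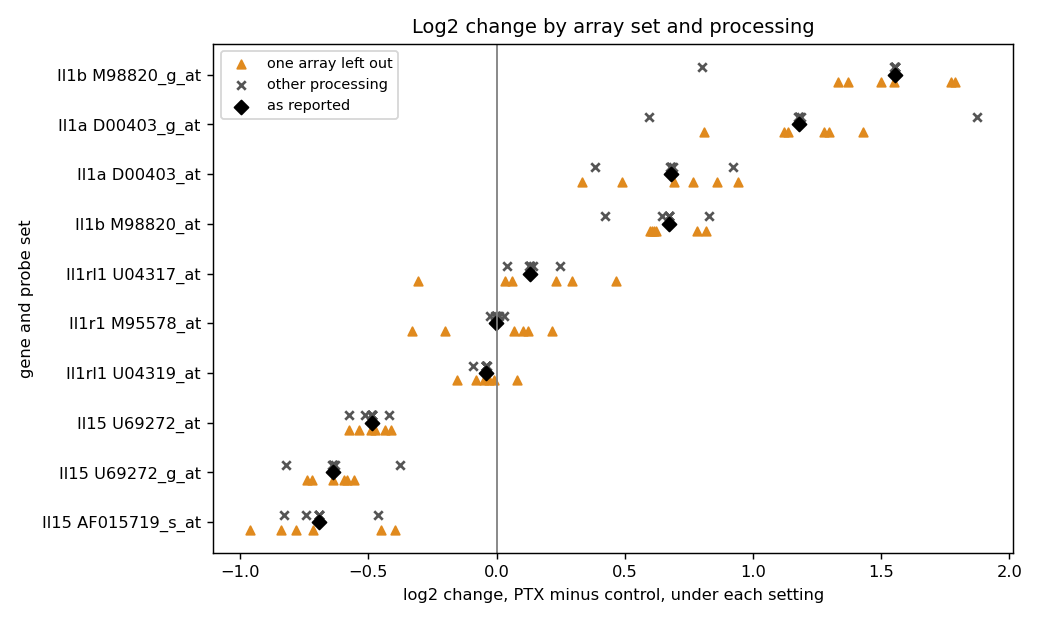
Log2 change (PTX minus control) of the 10 probe sets above the filter as reported (diamonds), with 1 array left out (triangles) and under other processing (crosses). Il1r1 and both Il1rl1 probe sets have values on both sides of 0. Values of Il1b on M98820_g_at run from 0.80 to 1.79.

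Macrophages are a known source of Il1b, and their markers were set beside it. Of 13 macrophage and leukocyte markers listed, 10 were on the array and 6 passed the filter, 4 of them with positive and 2 with negative log2 changes and none past the adjusted threshold (without adjustment, 2 were higher and 0 lower at a p under 0.05). The summed signals of the 10 were 4288 to 5430 in PTX arrays and 3540 to 3580 in control arrays. Most of the sum came from Lyz2, a lysozyme, so the sum mainly follows that gene. Lyz2 averaged 3445 ± 638 with PTX and 2381 ± 210 in controls (log2 change 0.52, limma adjusted p = 0.303). The larger change was that of the Fc receptor gene Fcgr2b, which had 596.1, 591.5 and 647.6 in PTX arrays and 323.0, 297.5 and 353.8 in control arrays. These groups were apart, with a log2 change of 0.88 (limma adjusted p = 0.0876). The complement gene C1qb had -0.39 with overlapping groups, and the endotoxin co-receptor gene Cd14 had 0.15 (limma adjusted p = 0.438 and 0.640). Another complement gene, C1qc, had -0.24, also with overlapping groups (limma adjusted p = 0.667). Ptprc, Csf1r, Itgam and Cd74 were below the filter, at mean signals of 4.17 to 23.8 with PTX and 13.1 to 34.1 in controls. Among them Cd74 had 6.1, 3.5 and 2.9 in PTX arrays and 27.8, 23.8 and 14.4 in control arrays. There every PTX array lay below every control array, without a test. The part of these cells in the Il1b signal was not tested. Of 9 lymphocyte markers on the array, 2 passed the filter, at mean signals of 40.8 and 49.3 with PTX and 53.1 and 57.3 in controls. The summed signals of the 9 were 157.7 to 219.2 in PTX arrays and 224.1 to 314.2 in control arrays, without overlap. Cd4 and Cd3d went the other way in their means, with overlapping groups. The part of lymphocytes in the interleukin signals was not tested.

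No tested gene that acts with the interleukin-1 receptor passed the threshold. Of 19 such genes listed, 11 were on the array. Those without a probe set annotated to them alone included Myd88, Irak1, Traf6, Ikbkb and Rela, so nothing is shown of them. Of 10 tested genes of the receptor family, ligand processing and signalling, 4 had positive and 6 negative log2 changes, with 0 past the adjusted threshold (limma; without adjustment 1 was higher and 0 lower at a p under 0.05) and a median of -0.06. The 1 higher gene was Nfkbia, the NF-kB inhibitor that NF-kB itself induces. Nfkbia is also on the list of interleukin-1 and NF-kB induced genes below, so its change counts under both. Its second probe set, X63594cds_at, had 280.7, 271.1 and 298.7 in PTX arrays and 201.5, 121.0 and 134.9 in control arrays, apart like the brightest one, with log2 changes of 0.86 and 0.78 (limma adjusted p = 0.215 and 0.137). Without control replicate 1 the brightest passed, at an adjusted p of 0.0135. Il1rap, the accessory chain, had 25.1, 39.5 and 33.8 in PTX arrays and 59.2, 62.3 and 40.5 in control arrays (log2 change -0.52, limma adjusted p = 0.439). Its second probe set was below the filter with overlapping groups. Mapk9, a stress-activated kinase, had a log2 change of -0.29, and Jun, a subunit of AP-1, 0.15 (limma adjusted p = 0.526 and 0.612).

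Genes that interleukin-1 and NF-kB are known to induce in fibroblasts had mostly positive changes. Of 20 on the array 15 were tested on their brightest probe set, 12 had positive and 3 negative log2 changes, and the median was 0.78, beside -0.02 for all tested probe sets. Past the adjusted threshold 2 rose and 0 fell with limma, namely Pla2g2a, a secreted phospholipase, with a log2 change of 4.13, and Lcn2, an iron-withholding lipocalin, with 1.65. Without adjustment, 9 were higher and 1 lower at a p under 0.05, beside 7.97% higher and 4.61% lower of all tested probe sets, of which 47.1% had positive changes. The lower gene was Nos2, the inducible nitric oxide synthase, with 20.3 ± 9.52 in PTX arrays and 66.6 ± 15.1 in control arrays (SD, n = 3 each), groups that were apart and a log2 change of -1.20 (limma adjusted p = 0.222). All 3 of its PTX signals (16.7, 13.1 and 31.1) lay under the filter level, so it passed the filter only through its control arrays. Its 3 other probe sets are not given here. The complement gene C3 (1.59) and the chemokine gene Ccl2 (1.52) missed the threshold on their brightest probe sets, with adjusted p of 0.0579 and 0.0635, and a second probe set of each passed at 0.0429. Both Pla2g2a and Lcn2 lost their calls without any 1 PTX array, with adjusted p of 0.191 to 0.214, and with the replicate block or without a variance trend (0.0567 to 0.0987), and Lcn2 also without control replicate 2 (0.0762). The second probe sets of C3 and Ccl2 lost theirs without any 1 PTX array (0.232 to 0.355), with the replicate block (0.0987), without a variance trend (0.0720), with a pseudocount of 1 (0.0527 and 0.0548) and with quantile normalization (0.0581). That of C3 was also lost without control replicate 2 (0.118) and that of Ccl2 without a filter (0.0635). Without control replicate 1 the brightest probe sets of C3 and Ccl2 passed, at adjusted p of 1.68e-05 and 0.000308. The list was drawn up with earlier results of these arrays known, so its direction is not independent evidence.

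**Figure D4:**
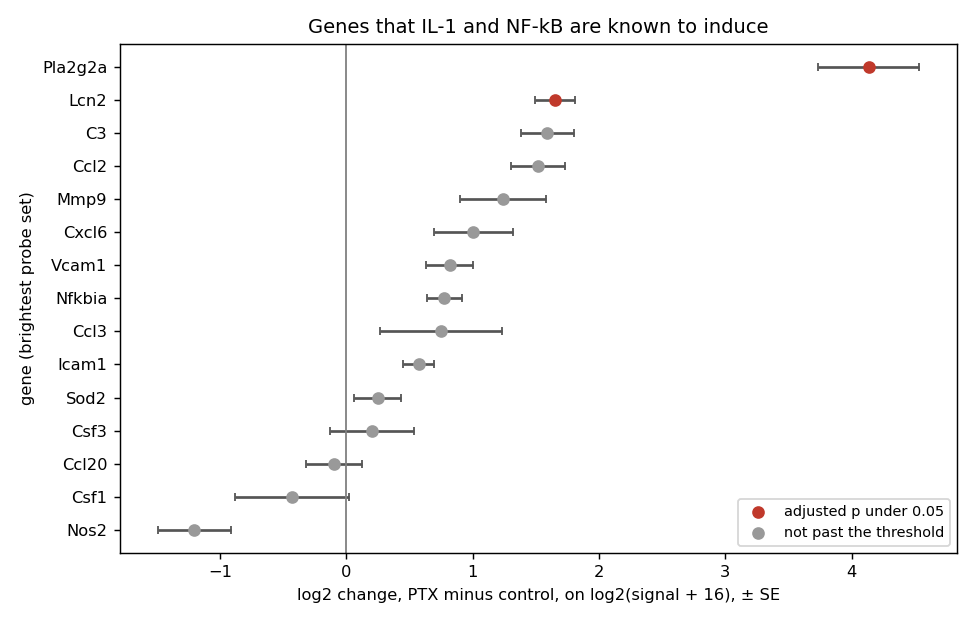
Log2 change (PTX minus control, on log2(signal + 16)) with limma's SE as bars for the 15 tested genes of the interleukin-1 and NF-kB list, each on its brightest probe set, with the 2 that passed the adjusted threshold in red. Pla2g2a and Lcn2, at 4.13 and 1.65, lie farthest right, and Nos2, Csf1 and Ccl20 lie left of 0.

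Some receptor and signalling genes of the interleukin-6 family passed the filter although Il6 itself did not. Of 11 on the array 6 were tested, 4 with positive and 2 with negative log2 changes, and 0 passed the adjusted threshold (limma; without adjustment 1 was higher and 0 lower at a p under 0.05). Il6r, the ligand-binding receptor, had 100.1, 103.9 and 118.1 in PTX arrays and 67.0, 53.4 and 90.2 in control arrays. The groups were apart, with a log2 change of 0.54 ± 0.21 (limma adjusted p = 0.374). Il6st, the signal-transducing chain, had 392.7, 391.3 and 253.2 in PTX arrays and 339.2, 410.3 and 396.6 in control arrays. PTX replicate 3 was low there, and the log2 change was -0.16 (limma adjusted p = 0.711). Jak2, a kinase that the chain recruits, had 0.33, and Socs3, a feedback inhibitor, had 0.54 with widely spread controls of 10.4, 82.2 and 16.6 (limma adjusted p = 0.433 and 0.633).

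Among genes that interleukin-6 and STAT3 induce, 10 of 15 were tested, and 9 had positive and 1 a negative log2 change, with a median of 0.22 beside -0.02 for all tested probe sets. None passed the adjusted threshold with limma, and without adjustment 3 were higher and 0 lower at a p under 0.05. Of all tested probe sets 7.97% were higher and 4.61% lower by that measure, and 47.1% had positive changes. The 3 higher were the adhesion molecule gene Icam1 (0.57), the haptoglobin gene Hp (0.88) and the ceruloplasmin gene Cp (0.63), with adjusted p of 0.184, 0.204 and 0.307. A second Cp probe set had 0.19 with overlapping groups. Timp1, a metalloproteinase inhibitor, had 0.25, with all PTX arrays above all control arrays (limma adjusted p = 0.432). Without control replicate 1, Icam1 (0.0228) and Cp (0.0473) passed, as adjusted p. Icam1 is also on the interleukin-1 and NF-kB list, so its change counts under both. Socs3 likewise counts both here and among the interleukin-6 signalling genes. The interleukin-6 and STAT3 list was likewise drawn up with earlier results known, so its direction is not independent evidence.

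The receptor side of interleukin-15 was sparsely measured. Of 8 genes of its receptor and the common gamma chain family on the array, 3 were tested, and 0 passed (limma, also 0 at an unadjusted p under 0.05). Stat5b, a transcription factor downstream of the receptor, had 111.1, 137.9 and 115.5 in PTX arrays and 234.7, 162.4 and 132.7 in control arrays (log2 change -0.46, limma adjusted p = 0.432). The groups overlapped by 1 array on each side, and the log2 change was -0.25 without control replicate 1. The kinase gene Jak3 had 0.19 and Stat5a -0.08. The receptor beta chain gene Il2rb was below the filter, at mean signals of 7.97 with PTX and 9.97 in controls.

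Most other interleukins and their receptors lay below the filter, as Il6 did. Of 16 on the array 4 were tested, 3 with positive and 1 with a negative log2 change, and 0 passed the adjusted threshold (limma; without adjustment 1, Il6r, was higher and 0 lower at a p under 0.05). Besides Il6r these were Il4r, the interleukin-4 receptor, with 242 ± 13.8 in PTX arrays and 213 ± 19.1 in control arrays (log2 change 0.18), Il13 (-0.65) and Il18 (0.06), none of which had groups that were apart. The genes below the filter included Il2, Il4, Il7 and Il10.

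The genes whose log2 signals followed those of Il1b and Il1a most closely over the 6 arrays are given as a description. For Il1b on M98820_g_at these were Tango2, with a Pearson r of 0.991, Abcc9 (0.985) and Dhrs7b (0.983). For Il1a on D00403_g_at they were Rab5b (0.998), Tmtc3 (0.996) and Irgm2 (0.994). All 6 had signals that were higher in every PTX array than in every control array, and none passed the adjusted threshold. The 6 arrays share 2 groups, and control replicate 1 had the lowest signal on each of these probe sets. The correlations therefore describe these arrays only.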

How the data were processed

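The 6 arrays comprise 3 PTX and 3 control cultures, grouped and numbered by the sample titles. Per the submitters' processing notes the authors used GCOS, the Affymetrix software, in a version and with a scaling that neither notes nor labels state. The authors deposited linear intensities, 1 column per array, of 8740 probe sets, and the number of other per-sample columns is 0. Per the labels' protocols, biotin-labelled cRNA was hybridised. Of these probe sets 7006 have 1 gene symbol in the platform annotation, and symbols were updated by Entrez identifier through RefSeq's table of GRCr8. A listed gene is counted as on the array only if one of these probe sets is annotated to it. The annotation has no genome build for the probe sets, so none of their coordinates are given.

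Deposited signals were used without rescaling as log2(signal + 16). A fold change is therefore computed with the 16 added and is too small for low signals. Probe sets under the 40th percentile of mean log2 signal were left out of tests, and the others were fitted by lmFit in limma 3.58.1 (R 4.3.3). Variances were moderated by eBayes with its trend option, and two-sided p-values of all 5244 were adjusted by Benjamini-Hochberg. Precision is limited by there being 6 arrays. The procedure was also run on simulated arrays in which the spreads were shuffled over the probe sets. That run therefore cannot test how the variance trend treats low signals, and no conclusion is drawn from it. The members and gene lists were chosen with earlier results of these data known. All 18 member probe sets are given. From each list the genes named are up to 4 with the smallest p and any past the threshold, on the brightest probe set, and for the 2 members with the smallest p the 3 genes with the highest Pearson r. Other genes named were chosen after their values were seen. The 14 alternatives changed the pseudocount (1 or 64), the filter (none, or the 60th percentile), the scaling (common median or quantile) or the model (replicate block, or no trend in eBayes), or left out 1 array.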

Additional observations from a re-analysis of the deposited data

How the results depend on the processing

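The number of probe sets called over the whole array, 4 as reported, was 2 with a pseudocount of 1, 7 with a pseudocount of 64, 2 with quantile normalization, 0 with the replicate block (552 at an unadjusted p under 0.05) and 0 with eBayes without a trend (615). It ranged from 0 to 116 with 1 array left out, 116 without control replicate 1, 29 without control replicate 3 and 0 without any 1 PTX array (360 to 376 at an unadjusted p under 0.05). The number of member probe sets called was 0 in all 14 alternatives, with a smallest adjusted p of 0.0737, and 1 to 8 had an unadjusted p under 0.05. The 1 was of 2 tested with the 60th percentile filter, beside 507 of 3496 over the whole array. The 8 were of 18 tested without a filter, beside 864 of 8740. Same-numbered PTX and control arrays did not deviate together (correlations of -0.09, -0.11 and -0.01), so the numbers were not taken as pairs. Changes of sign occurred for 6 tested probe sets, and for 4 untested ones of the members. The untested ones ran from -0.0377 to 0.54 for Il1b on E01884cds_s_at, -0.14 to 0.11 for Il1rn, -0.23 to 0.32 for Il1r1 on U14010_at and -0.29 to 0.20 for Il6 on M26744_at. Il1r1 on M95578_at, -0.00 as reported, was 0.0096 with a pseudocount of 64 and 0.0295 with quantile normalization. With 1 array left out it ran from -0.33 to 0.22, Il1rl1 from -0.16 to 0.0802 on U04319_at and from -0.31 to 0.47 on U04317_at, Il6st from -0.26 to 0.0402, Stat5a from -0.36 to 0.22 and Il18 from -0.0321 to 0.24. The cause was not tested. Over all alternatives, 588 values of single probe sets kept direction and side of the threshold if tested, or moved by less than 1 SD if untested (13 untested values changed sign). Of the others, 11 lost and 6 gained a call, 14 values of tested probe sets changed sign and 7 untested ones moved by more than 1 SD. With the 60th percentile filter 2 member probe sets were left, those of Il1rl1 and Il15, and with a pseudocount of 1 M98820_g_at dropped out. Of the probe sets under the filter, the pseudocount moved Il1a on E05489cds_s_at (0.18 to 1.47), both Il1r1 probe sets whose groups were apart (0.34 to 1.36 and -1.89 to -0.36) and Il6 on M26745cds_s_at (up to 0.68). Signals this close to background set the limit of what the arrays show of Il1rn, Il1r1 and Il6.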
